A study of Homo sapiens with 6 samples.

Results

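The genes examined were 10 genes of the epithelial-mesenchymal transition (EMT), namely the transcription factors SNAI1, SNAI2, TWIST1, TWIST2, ZEB1 and ZEB2, the cadherins CDH1, CDH2 and CDH11, and VIM. They were taken by symbol from the 63009 genes with 1 value per library, and each symbol had 1 row. Expression was measured by RNA-seq of poly(A) RNA in 6 libraries of ERRAS cells, which are IMR90 primary human lung fibroblasts carrying a retroviral construct in which the activated H-RasV12 oncoprotein is joined to the hormone-binding part of the estrogen receptor. The 3 uninduced libraries came from cells without inducer, and the 3 induced libraries from cells with Ras active for 4 days, for which the labels give 100 nM tamoxifen, whereas the methods of the study name 4-hydroxytamoxifen and give its dose as mass per volume, which is not the same dose. Both groups were grown in medium with 20% serum and G418 at 3% oxygen, and both were arrested in mitosis with 1 µM DME, an inhibitor of the kinesin Eg5, with a mitotic index above 90% in the labels, so that the values describe mainly mitotic cells. The labels describe no inducer in the controls, so an effect of tamoxifen itself and an effect of Ras cannot be told apart. The labels number the samples but do not say that they came from separate cultures, whereas the study describes 3 independent repeats.

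EMT is the change of epithelial cells, which are held together by E-cadherin (CDH1), into migratory mesenchymal cells. The SNAI and ZEB proteins are zinc-finger repressors and the TWIST proteins are basic helix-loop-helix factors. They bind E-boxes, short DNA motifs found in promoters such as that of CDH1, and the switch from CDH1 to N-cadherin (CDH2) together with vimentin (VIM), a mesenchymal intermediate filament, is the usual sign that they are active. Fibroblasts are mesenchymal to begin with and use CDH2 and the mesenchymal cadherin CDH11 for contact. TWIST1 and TWIST2 are also known for overriding Ras-induced senescence when they are overexpressed.

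Levels are given as FPKM, a fragment count divided by the transcript's length and by the number of fragments mapped in the library. The limma test was run on log2(FPKM + 1) for every gene averaging 1 FPKM or more, and a gene is called altered where its adjusted p (Benjamini-Hochberg) did not exceed 0.05. Of the 10 genes, 9 passed the filter, and CDH1 did not. After Ras induction 4 of the 9 were altered. TWIST1 and TWIST2 rose, CDH2 and CDH11 fell, and SNAI1, SNAI2, ZEB1, ZEB2 and VIM did not pass the test. Among all 13993 tested genes 16.7% were altered, 11% being higher and 5.67% lower in induced cells. With 1 library left out the altered genes numbered 998 to 1956 instead of 2336, so list counts given for such fits have a lower background. The median log2 fold change was 0.06 over the 9 genes and 0.10 over all tested genes. After quantile normalization the median of all genes was 0.01, with 1044 genes higher and 1109 lower against 1543 and 793 in the deposited values, and the same 4 of the 10 genes were called in the same directions. In these bulk libraries, fewer cells with a transcript and less of it per cell cannot be told apart. The induced values lay wholly on one side of the uninduced values for 5 of the 9 genes, the 4 altered ones and SNAI1, against 39.9% of all tested genes.

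**Figure D1:**
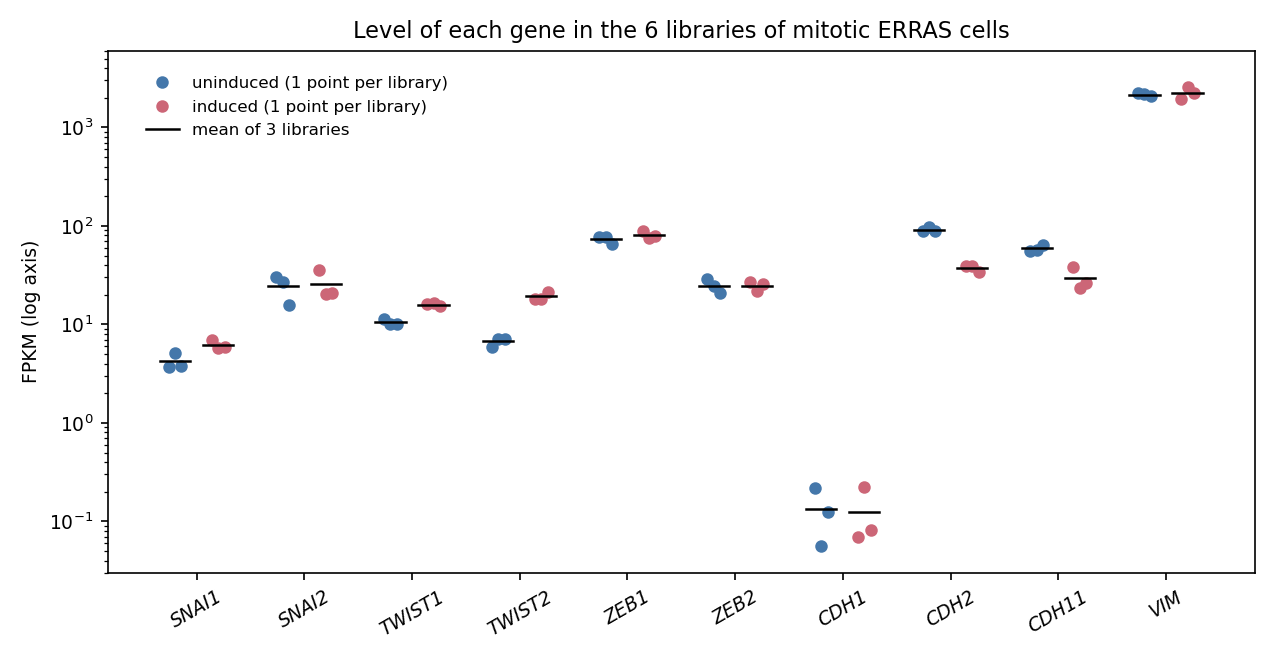
FPKM of the 10 genes on a log axis, 1 point per library, with uninduced libraries on the left and induced libraries on the right of each gene and a line at the mean of 3. VIM lies between 1924 and 2564 FPKM and CDH1 between 0.0558 and 0.224 FPKM, and the groups of TWIST1, TWIST2, SNAI1, CDH2 and CDH11 do not overlap.

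Relative to the first uninduced library, the depth of the libraries, estimated from the ratios of low FPKM values in 1495 genes, lay between 0.841 and 1.16, and between 13448 and 13813 genes reached 1 FPKM. HRAS measured 1174, 1176 and 1140 FPKM in the uninduced and 1439, 1847 and 1473 FPKM in the induced libraries, where reads of the construct and of the endogenous gene cannot be told apart. Its log2 fold change was 0.44 (SE 0.11, limma adjusted p = 0.0431), and only 4 of 13 other ways of fitting the data called it, with adjusted p from 0.0193 to 0.166. It was lost without any 1 of the uninduced libraries and without induced library 1 or 3. All 9 fibroblast markers, including COL1A1, PDGFRA and THY1, reached 1 FPKM, and their sum was 2729 to 3480 FPKM in uninduced and 903 to 1824 FPKM in induced libraries, with 4 of the 9 (COL1A2, THY1, LUM and DCN) altered, all of them lower. Of the epithelial markers, EPCAM and ESRP1 averaged 1.24 and 0.113 FPKM in uninduced and 0.288 and 0.0217 FPKM in induced libraries. KRT18 led that list with means of 48.1 and 57.9 FPKM, and the basal keratins KRT5 and KRT14 averaged 11.7 and 10.2 FPKM in uninduced and 11.6 and 8.45 FPKM in induced libraries. The list of 9 epithelial markers summed to 88.2 to 98.6 FPKM in uninduced and 94.99 to 101.4 FPKM in induced libraries. The leukocyte markers stayed under 1 FPKM, as did 4 of the 5 endothelial markers, with CD3E, ITGAM and PECAM1 listed at 0 in every library. The exception, TEK, averaged 15.3 FPKM in uninduced and 4.93 FPKM in induced libraries and was altered. The 5 smooth muscle markers summed to 824 to 1181 FPKM and to 203 to 344 FPKM, and 3 of them (ACTA2, CNN1 and TAGLN) were lower. The 5 mitotic markers summed to 1400 to 1435 FPKM and to 1157 to 1293 FPKM, 2 of them (PLK1 and TOP2A) being lower. The part of the fibroblast, smooth muscle and mitotic markers in the results below was not tested.

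In uninduced mitotic cells the order of levels per transcript length was VIM, CDH2, ZEB1, CDH11, ZEB2, SNAI2, TWIST1, TWIST2, SNAI1 and CDH1. Neighbours in this order did not overlap between libraries, with the exception of ZEB2 and SNAI2. After induction the order was VIM, ZEB1, CDH2, CDH11, SNAI2, ZEB2, TWIST2, TWIST1, SNAI1 and CDH1. CDH2 thus moved below ZEB1, and TWIST2 above TWIST1. Here CDH2 overlapped CDH11, CDH11 overlapped SNAI2, and SNAI2 overlapped ZEB2.

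TWIST2 (ENSG00000233608, chromosome 2 of GRCh37 from 239756673 to 239832230, forward strand) had the largest rise of the 10 genes. It measured 5.91, 7.06 and 7.18 FPKM in the uninduced libraries and 18.2, 18.2 and 21.3 FPKM in the induced libraries. Every induced library was above every uninduced one, and the replicates of each group were close. The mean rose 2.87-fold, from 6.72 ± 0.703 to 19.3 ± 1.78 FPKM (SD, n = 3 each). On the log2(FPKM + 1) scale, which understates changes of low genes, the difference was 1.39 (SE 0.11, 95% interval 1.13 to 1.66, limma adjusted p = 0.00197). Of all tested genes, 97.9% had a smaller log2 fold change.

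TWIST1 (ENSG00000122691, chromosome 7 of GRCh37 from 19060614 to 19157259, reverse strand) also rose, by less. It measured 11.3, 10.1 and 10.2 FPKM in uninduced and 15.9, 16.4 and 15.3 FPKM in induced libraries, with no overlap. The mean rose 1.51-fold, from 10.5 ± 0.684 to 15.9 ± 0.577 FPKM (SD, n = 3 each). Its log2 fold change was 0.55 (SE 0.09, 95% interval 0.34 to 0.76, limma adjusted p = 0.0103), and it remained called when any 1 library was left out, with adjusted p from 0.0246 to 0.0478. TWIST1 and TWIST2 are close paralogs, and how reads common to them were assigned is not given in the sources used here.

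Because a common scaling of a library cancels in a ratio of 2 of its genes, TWIST2 was also divided by TWIST1. The ratio was 0.522, 0.700 and 0.704 in uninduced and 1.15, 1.11 and 1.396 in induced libraries, so TWIST1 was the higher of the pair in each uninduced library and TWIST2 in each induced one. The mean ratio rose 1.90-fold from 0.642 to 1.22 (two-sided exact permutation p = 0.1, the smallest that 3 against 3 libraries allow). The sum of both genes was 17.2, 17.1 and 17.4 FPKM in uninduced and 34.2, 34.7 and 36.6 FPKM in induced libraries. Within the uninduced group this sum varied less than either gene alone. Within the induced group its SD of 1.29 FPKM lay between the 0.577 FPKM of TWIST1 and the 1.78 FPKM of TWIST2. Such sums, ratios and shares were computed for 20 quantities, and the quantities with a permutation p of 0.1 all had an adjusted p of 0.167 over the 20, so none passed.

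SNAI1 (ENSG00000124216), the founding Snail repressor, was the least abundant of the 6 transcription factors. It measured 3.69, 5.13 and 3.81 FPKM in uninduced and 6.996, 5.81 and 5.90 FPKM in induced libraries. The induced libraries were all higher, but uninduced library 2 came close to induced library 2. The log2 fold change of 0.48 (SE 0.15, 95% interval 0.13 to 0.83) did not pass the test (limma adjusted p = 0.0689), and over 13 alternatives the adjusted p stayed between 0.0595 and 0.18.

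SNAI2 (ENSG00000019549), known as Slug, varied more between replicates than any other tested gene of the 10. It measured 30.6, 26.9 and 15.5 FPKM in uninduced and 35.5, 20.2 and 20.6 FPKM in induced libraries. The groups overlapped widely, and the coefficient of variation was 32.2% and 34.2%. The log2 fold change was 0.06 (SE 0.31, limma adjusted p = 0.907), and its 95% interval ran from -0.67 to 0.79, so a change of either sign smaller than this was not detectable. SNAI2 exceeded SNAI1 in every library, with a ratio of 4.08 to 8.29 in uninduced and 3.47 to 5.07 in induced libraries.

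ZEB1 (ENSG00000148516), a zinc-finger and homeodomain repressor of CDH1, was the most abundant of the 6 factors. It measured 77.5, 76.3 and 65.8 FPKM in uninduced and 89.5, 75.2 and 78.6 FPKM in induced libraries, and the groups overlapped. Its log2 fold change was 0.15 (SE 0.10, 95% interval -0.10 to 0.39, limma adjusted p = 0.367). ZEB2 (ENSG00000169554), its paralog, measured 28.7, 24.4 and 20.9 FPKM and 27.2, 21.6 and 25.5 FPKM. The log2 fold change of ZEB2 was 0.01 (SE 0.14, 95% interval -0.32 to 0.35, limma adjusted p = 0.962). ZEB1 was 2.70 to 3.15 times as high as ZEB2 in uninduced and 3.08 to 3.48 times as high in induced libraries.

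Summed over the 6 factors, the level was 143.7 ± 17.996 FPKM in uninduced and 172.7 ± 18.5 FPKM in induced cells (SD, n = 3 each), and the groups overlapped (two-sided exact permutation p = 0.2). Its make-up was separated between the groups, at the smallest p the design allows. TWIST1 and TWIST2 together made up 10.9%, 11.4% and 14.1% of it in uninduced and 17.7%, 22.01% and 21.9% in induced libraries (two-sided exact permutation p = 0.1). The share of ZEB1 was 49.1% to 53.3% and 46.3% to 47.8%, also without overlap (two-sided exact permutation p = 0.1). Both are shares of the same sum and so not separate results, and ZEB1 itself averaged 73.2 FPKM in uninduced and 81.1 FPKM in induced libraries.

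**Figure D2:**
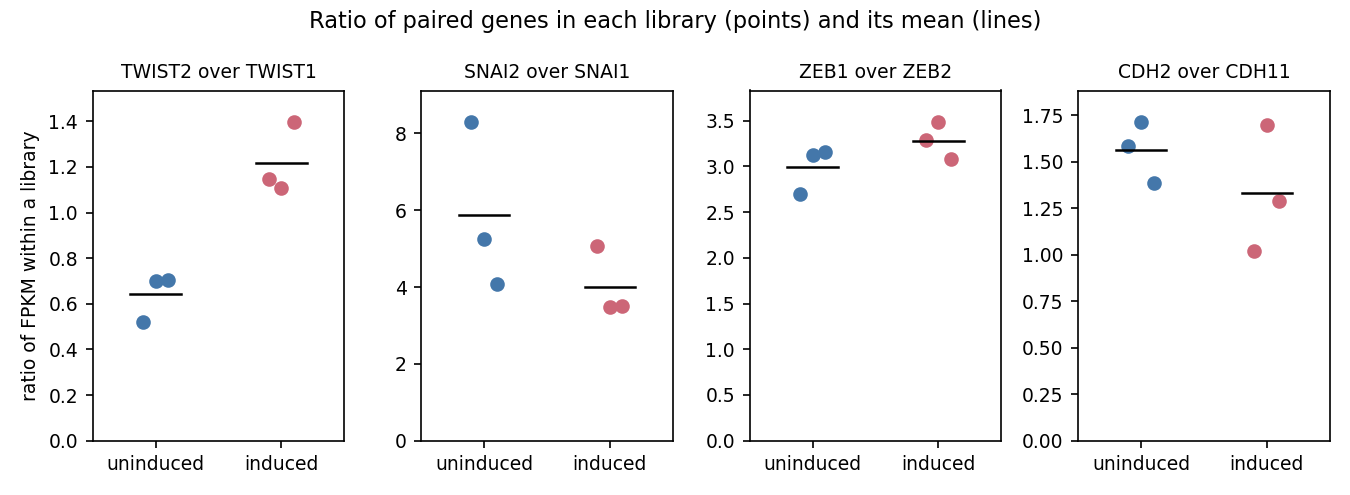
Ratio of the FPKM of 2 genes within each library, 1 point per library, with a line at the mean of the 3 uninduced and 3 induced libraries, on linear axes that start at 0. Only in the panel of TWIST2 over TWIST1 do the groups not overlap, with 0.522 to 0.704 in uninduced and 1.11 to 1.396 in induced libraries.

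CDH2 (ENSG00000170558, chromosome 18 of GRCh37 from 25512843 to 25757910, reverse strand) encodes N-cadherin and fell the most of the 10 genes. It measured 88.03, 97.4 and 89.7 FPKM in the uninduced libraries and 38.8, 39.6 and 34.1 FPKM in the induced libraries. The groups were far apart compared with the spread between replicates. The means were 91.7 ± 4.97 and 37.5 ± 2.96 FPKM (SD, n = 3 each), so that 0.409 of the uninduced level was left. The log2 fold change was -1.27 (SE 0.09, 95% interval -1.48 to -1.06, limma adjusted p = 0.0013), and only 2.06% of all tested genes had a smaller one. A long noncoding RNA, ENSG00000227279, lies antisense to CDH2 with 307 shared exonic bases. It was listed at 2.12 to 3.82 FPKM in uninduced and 0.817 to 1.38 FPKM in induced libraries, and the library kit does not keep strand, so reads in the shared bases cannot be assigned.

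CDH11 (ENSG00000140937, chromosome 16 of GRCh37 from 64977656 to 65160015, reverse strand) encodes OB-cadherin, a type II cadherin of mesenchymal cells. It measured 55.6, 56.9 and 64.6 FPKM in uninduced and 38.1, 23.3 and 26.5 FPKM in induced libraries. All induced libraries were lower, and induced library 1 lay apart from the other two. The means were 59.0 ± 4.90 and 29.3 ± 7.80 FPKM (SD, n = 3 each). The log2 fold change was -1.01 (SE 0.18, 95% interval -1.44 to -0.58, limma adjusted p = 0.0146). Without induced library 3 the log2 fold change was -0.96 and the adjusted p 0.0545, just outside the threshold. In the 12 other alternatives CDH11 was called. CDH2 was 1.39 to 1.71 times as high as CDH11 in uninduced and 1.02 to 1.70 times in induced libraries, which overlapped (two-sided exact permutation p = 0.4).

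CDH1 (ENSG00000039068, chromosome 16 of GRCh37 from 68771195 to 68869440) encodes E-cadherin and stayed near 0 in both groups. It was listed at 0.216, 0.0558 and 0.125 FPKM in uninduced and 0.0698, 0.224 and 0.081 FPKM in induced libraries. The values overlapped fully. With no filter on low values its log2 fold change was -0.01 (SE 0.08, limma adjusted p = 0.964 over 29362 genes), and at this level a change was not detectable.

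VIM (ENSG00000026025, chromosome 10 of GRCh37 from 17270240 to 17279592) had the fourth highest mean of all tested genes. It measured 2216, 2157 and 2074 FPKM in uninduced and 1924, 2564 and 2257 FPKM in induced libraries, and both the lowest and the highest value came from induced cells. The log2 fold change was 0.06 (SE 0.12, 95% interval -0.22 to 0.34, limma adjusted p = 0.772). VIM made up 0.373% to 0.388% of the summed FPKM of uninduced and 0.334% to 0.411% of that of induced libraries. An antisense transcript within VIM, ENSG00000234961, shares 619 exonic bases with it and was listed at 119.9 to 154.5 FPKM, and without strand its reads and those of VIM cannot be separated. Set against VIM in the same library, CDH2 made up 3.97% to 4.51% in uninduced and 1.51% to 2.02% in induced cells, and CDH11 made up 2.51% to 3.12% and 0.91% to 1.98%. TWIST2 over VIM was 0.267% to 0.346% in uninduced and 0.711% to 0.948% in induced libraries.

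**Figure D3:**
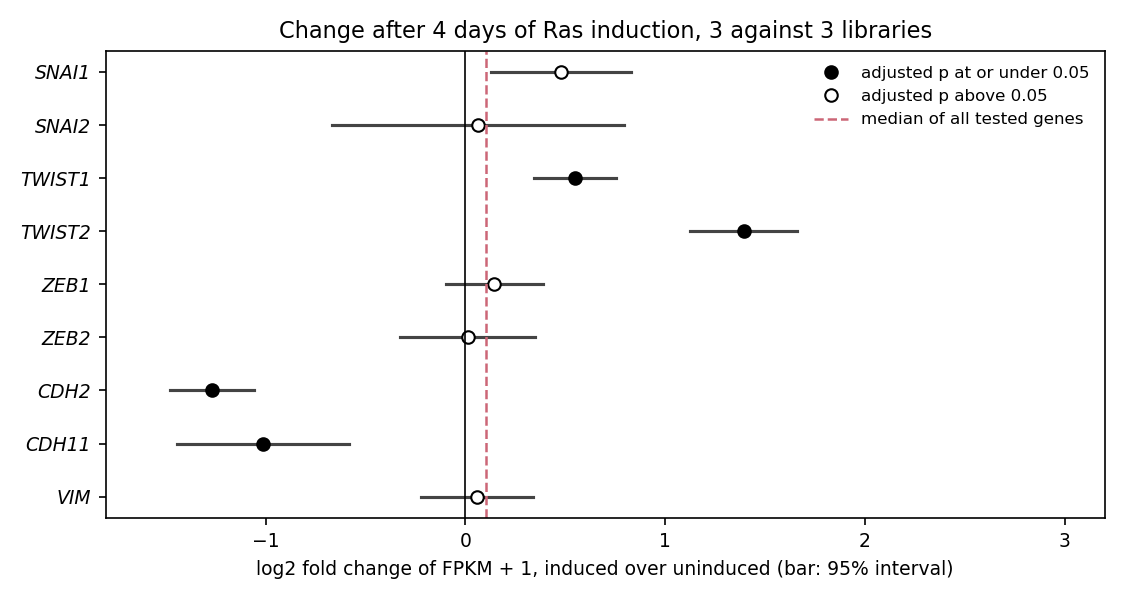
Log2 fold change of FPKM + 1 of the 9 tested genes (points) with its 95% interval (bars) from limma, 3 induced against 3 uninduced libraries, and the median of all tested genes, 0.10, as a dashed line. TWIST1 and TWIST2 lie to the right and CDH2 and CDH11 to the left with intervals that leave out 0, as does that of SNAI1, which was not called, whereas the intervals of SNAI2, ZEB1, ZEB2 and VIM span it.

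The promoters of the gene that rose the most and of the gene that fell the most are shown because they are the sequences in which a shared motif could be looked for. They are from RefSeq on GRCh38.p14 and cover the 250 bases before the annotated start, from 5′ to 3′ on the strand of the gene. Capitals mark CCAAT, read on either strand. The window of TWIST2 is chr2:238847835-238848084 on the forward strand and that of CDH2 is chr18:28177131-28177380 on the reverse strand.
TWIST2: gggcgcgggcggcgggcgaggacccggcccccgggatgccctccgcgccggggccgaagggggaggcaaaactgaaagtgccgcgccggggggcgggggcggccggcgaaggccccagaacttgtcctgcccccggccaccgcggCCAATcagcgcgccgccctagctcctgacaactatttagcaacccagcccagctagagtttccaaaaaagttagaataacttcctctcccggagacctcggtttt
CDH2: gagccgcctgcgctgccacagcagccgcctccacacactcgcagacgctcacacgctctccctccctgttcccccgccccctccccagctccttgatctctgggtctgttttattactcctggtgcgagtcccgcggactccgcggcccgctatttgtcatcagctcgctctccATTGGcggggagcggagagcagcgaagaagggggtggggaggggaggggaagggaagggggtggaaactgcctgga

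Windows of 300 bases, from 250 before to 50 after a start, were searched on both strands for the E-box CANNTG, for its form CAGGTG, preferred by the SNAI and ZEB proteins, which every CANNTG count includes, and for CCAAT, the box bound by NF-Y. RefSeq windows were used for 5 of the 10 genes, TWIST2, ZEB1, ZEB2, CDH2 and VIM, which have 12 windows, 7 of them of ZEB1. No window was used for SNAI1, SNAI2, TWIST1, CDH1 or CDH11. CANNTG was in 6 of the 12 windows and in 68.7% of 35093 promoters, and neither the TWIST2 window nor the CDH2 window printed above held it, whereas the second CDH2 window held it at -97. CAGGTG was in 2 of the 12, both of ZEB1, and in 20.6% of all promoters. In these windows it began at -57 from 1 start of ZEB1 and at -242, -85 and 34 from another. CCAAT was in 3 of the 12 windows, at -105 in TWIST2, at -76 in the printed CDH2 window and at -67 in the second CDH2 window, and in 34.6% of all promoters. A match is a string of letters and not a shown binding site.

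Of 23 classical and related cadherins, the 3 named above and 20 others, 22 had a row of 6 values, and CDH3 was left out because its row held more. Only 6 of the 22 had a mean of at least 1 FPKM, namely CDH13, CDH2, CDH11, CDH6, CDH4 and CDH24, and the other 16 stayed under 1 FPKM in every library. Of the 4 tested others, 1 was altered, against 16.7% of all tested genes. CDH4, known as R-cadherin and a close relative of CDH2, measured 12.9, 12.0 and 15.9 FPKM in uninduced and 4.70, 4.56 and 4.68 FPKM in induced libraries, a log2 fold change of -1.36 (SE 0.12, limma adjusted p = 0.0023). CDH13, the lipid-anchored T-cadherin and the most abundant of all, measured 138.5, 111.6 and 166.3 FPKM and 128.9, 85.4 and 125.4 FPKM, and its groups overlapped (limma adjusted p = 0.36). CDH6 had a log2 fold change of -0.74 (limma adjusted p = 0.0716) and CDH24 of -0.36 (limma adjusted p = 0.123). The FPKM of all 22 summed to 345.0 ± 27.9 in uninduced and 210.8 ± 27.9 in induced cells (SD, n = 3 each), without overlap (two-sided exact permutation p = 0.1). CDH2 and CDH11 together made up 40.9% to 47.0% of it in uninduced and 28.8% to 34.4% in induced libraries, and CDH13 made up 34.0% to 44.1% and 46.7% to 59.6%.

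**Figure D4:**
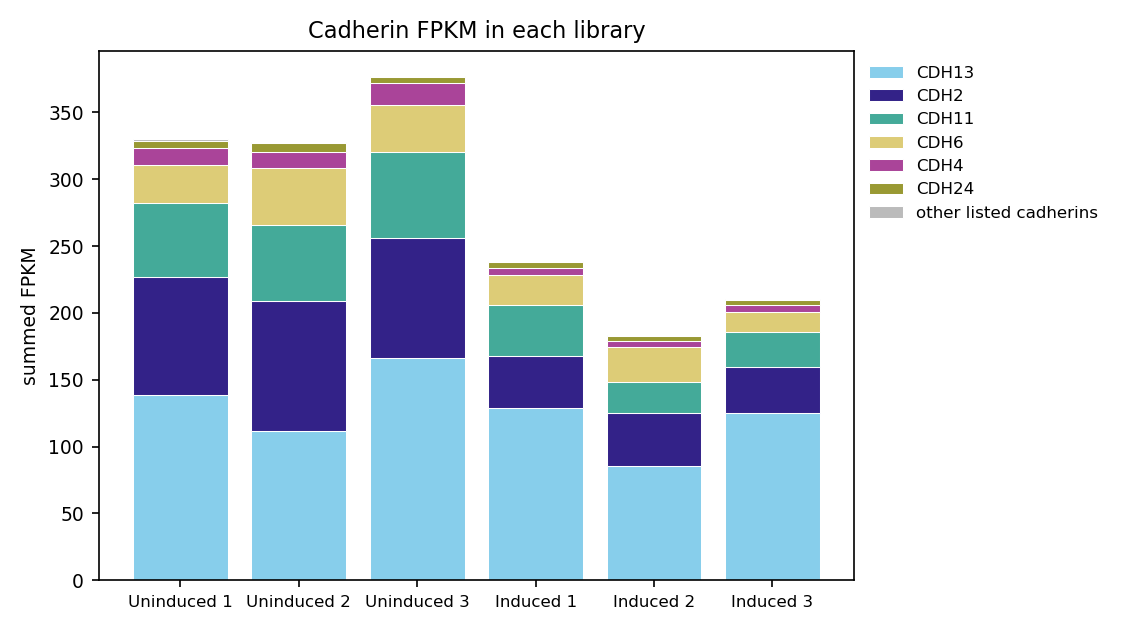
Summed FPKM of the cadherins in each of the 6 libraries, stacked by gene, for the 6 cadherins with a mean of at least 1 FPKM and the rest together. The bars of the induced libraries reach 183 to 239 FPKM and those of the uninduced libraries 328 to 377 FPKM, and the CDH2 part shrinks from between 88.03 and 97.4 to between 34.1 and 39.6 FPKM.

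The cytoplasmic partners of the cadherins were followed in a list of 16 catenins and adherens junction linkers, of which 12 were tested. None was higher and 3 were lower in induced cells, a share of 25% against 16.7% altered and 5.67% lower among all tested genes. VCL (vinculin, which links catenins to actin) fell from 207.4 ± 10.6 to 122.5 ± 9.32 FPKM (SD, n = 3 each), with a log2 fold change of -0.76 (SE 0.08, limma adjusted p = 0.00396). PKP4, a relative of p120-catenin, had a log2 fold change of -0.82 (limma adjusted p = 0.0167, and 0.0584 without induced library 1). PVRL2 (nectin-2) had -0.51 (limma adjusted p = 0.0141, and up to 0.0541 without induced library 1 or 3). Without induced library 1 the list held 1 altered gene. The core catenins did not pass the test. CTNNA1 averaged 245.9 and 239.5 FPKM, CTNNB1 117.2 and 119.3 FPKM and CTNND1 26.9 and 27.2 FPKM. The median log2 fold change of the 12 genes was -0.13, against 0.10 for all tested genes. Of 8 genes for the cleavage of cadherins, which include ADAM10 and the gamma-secretase subunits, only PSENEN was altered, at 0.51 (limma adjusted p = 0.0282), a share of 12.5% against 16.7% of all tested genes. It was called in 5 of 13 alternatives and was lost without uninduced library 1 or 2 and without induced library 1 or 2, with adjusted p of up to 0.0912. APH1A, a gamma-secretase subunit and the most abundant of the list, had 0.05 (limma adjusted p = 0.721), and the median of the list was 0.01.

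Among 15 further transcription factors linked to EMT, 11 were tested, 1 rose and 1 fell, a share of 18.2% that is close to the 16.7% of all tested genes. PRRX1, a homeobox factor of mesenchyme, rose from 38.4 ± 6.49 to 113.8 ± 14.9 FPKM (SD, n = 3 each), a log2 fold change of 1.55 (SE 0.15, limma adjusted p = 0.00267). TCF4, an E protein that can pair with TWIST proteins, fell from 39.4 ± 5.45 to 25.2 ± 1.11 FPKM (SD, n = 3 each), a log2 fold change of -0.61 (limma adjusted p = 0.0169). The call of TCF4 was lost without uninduced library 1 or 2 or induced library 1 or 3, with adjusted p of up to 0.0636. Its paralogs TCF3, the most abundant of the list, and TCF12 had log2 fold changes of -0.0041 and 0.16 and did not pass the test. SNAI3 averaged 0.0226 and 0.0390 FPKM. The median over the 11 genes was -0.0041. The count rose to 5 altered genes when at least 1 FPKM in 3 libraries was required, and fell to 1 without uninduced library 2 or without induced library 1 or 3.

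Of 29 epithelial genes other than CDH1, only 10 were tested, since the other 19 had means under 1 FPKM. None was higher and 2 were lower, a share of 20% against 16.7% altered and 5.67% lower among all tested genes. DSP (desmoplakin) fell from 10.4 ± 2.41 to 4.28 ± 1.12 FPKM (SD, n = 3 each), with a log2 fold change of -1.11 (limma adjusted p = 0.0203). DSG2 (desmoglein-2) fell from 3.58 ± 0.994 to 1.399 ± 0.243 FPKM (SD, n = 3 each), with a log2 fold change of -0.92 (limma adjusted p = 0.0258). Both encode desmosome proteins. DSP was lost without uninduced library 1 or 2 or induced library 3, and DSG2 without any 1 library other than uninduced library 3, with adjusted p of up to 0.0645 and 0.0722, and the list held 0 altered genes without uninduced library 1 or 2 or induced library 3. KRT18, the most abundant of the list, had a log2 fold change of 0.26 (limma adjusted p = 0.0638). The epithelial regulators GRHL2, OVOL1, OVOL2, ESRP1 and ESRP2 averaged at most 0.168 FPKM in either group. The median of the 10 tested genes was -0.26.

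Of 16 mesenchymal genes, all were tested, none was higher and 6 were lower in induced cells, a share of 37.5% against 16.7% altered and 5.67% lower among all tested genes. AXL, a receptor tyrosine kinase, fell from 173.9 ± 9.61 to 36.5 ± 0.740 FPKM (SD, n = 3 each), with a log2 fold change of -2.22 (SE 0.07, limma adjusted p = 9.77e-05). The actin-cytoskeleton genes ACTA2 and TAGLN had log2 fold changes of -3.20 and -1.86. The other 3 were SPARC, COL1A2 and COL5A2. COL1A1, with the highest mean over all 6 libraries, averaged 1345 FPKM in uninduced and 550.0 FPKM in induced libraries, where FN1 and ITGB1 were higher, and had a log2 fold change of -1.43 with a limma adjusted p = 0.0501, and 6 of 13 alternatives called it. FN1 (fibronectin), a usual EMT marker, averaged 945.5 and 947.0 FPKM, and S100A4 77.0 and 87.3 FPKM, and neither passed the test. The median of the 16 genes was -0.79. The list held 4 altered genes without uninduced library 1 or 2 and at most 9 in any alternative. The fibroblast marker sum given above was lower in the same induced libraries, and its part was not tested. That sum was made up mostly of COL1A1 and of COL1A2, which averaged 923.6 and 379.3 FPKM. The other 7 fibroblast markers differed among themselves. THY1 averaged 235.3 and 103.2 FPKM, COL3A1 253.4 and 114.2 FPKM, LUM 49.5 and 11.9 FPKM and DCN 251.0 and 24.7 FPKM, all 4 lower in induced libraries without overlap, although COL3A1 did not pass the test (limma adjusted p = 0.0553). PDGFRA averaged 52.9 and 48.8 FPKM and PDGFRB 70.0 and 70.0 FPKM, and FAP averaged 39.0 and 66.3 FPKM without overlap of the groups (limma adjusted p = 0.0869).

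Of 11 further genes, intermediate filament genes other than VIM and the linker PLEC, 6 were tested and 2 were altered, a share of 33.3% against 16.7% of all tested genes. NES (nestin, a filament protein that assembles with vimentin) rose from 101.7 ± 16.9 to 168.1 ± 4.98 FPKM (SD, n = 3 each), with a log2 fold change of 0.73 (SE 0.12, limma adjusted p = 0.0121). SYNC (syncoilin) fell from 18.8 ± 0.708 to 6.84 ± 1.11 FPKM (SD, n = 3 each), with -1.34 (SE 0.12, limma adjusted p = 0.00252). PLEC (plectin) measured 80.6, 79.1 and 92.9 FPKM in uninduced libraries and 71.2, 0 and 67.1 FPKM in induced libraries, where the value of induced library 2 is only listed at 0. The median of the 6 tested genes was -0.24.

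The nuclear partners and the turnover machinery of the factors were followed in a pair of further lists. Of 17 corepressor partners, all tested, 3 were lower and none higher, a share of 17.6% against 16.7% altered and 5.67% lower among all tested genes. EZH2, the methyltransferase of Polycomb, had a log2 fold change of -1.19 (SE 0.10, limma adjusted p = 0.00219). LOXL2 and LOXL3, lysyl oxidase-like proteins reported to stabilise SNAI1, had -0.89 and -0.56 (limma adjusted p = 0.0431 and 0.022). LOXL2 was lost without any 1 library other than induced library 2, and LOXL3 without any 1 other than uninduced library 2, with adjusted p of up to 0.114 and 0.0786. The list held 1 altered gene without uninduced library 1 or 3 and without induced library 1 or 3. CTBP1, CTBP2, HDAC1, HDAC2, SIN3A and KDM1A did not pass the test, with log2 fold changes from -0.19 to 0.20. Of 14 genes that control the stability of SNAI and TWIST proteins, all tested, FBXL14 and GSK3A were higher, at 0.74 and 0.40, and PRKD1 was lower, at -0.45 (limma adjusted p = 0.0378, 0.0425 and 0.0326). These 3 were 21.4% of the list, against 16.7% of all tested genes. FBXL14 encodes a ubiquitin ligase subunit for SNAI1, and GSK3A a kinase related to the SNAI1 kinase GSK3B. The GSK3A and PRKD1 calls were lost when any 1 library was left out, and the FBXL14 call when any 1 other than induced library 2 was, with adjusted p of up to 0.12. The list held 0 altered genes without any 1 library other than induced library 2. BTRC, which encodes the ubiquitin ligase subunit beta-TrCP, and CSNK1A1, the most abundant of the list, had 0.46 and 0.20 and did not pass the test. The median log2 fold change was 0.07 over the corepressor list and 0.20 over the stability list.

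**Figure D5:**
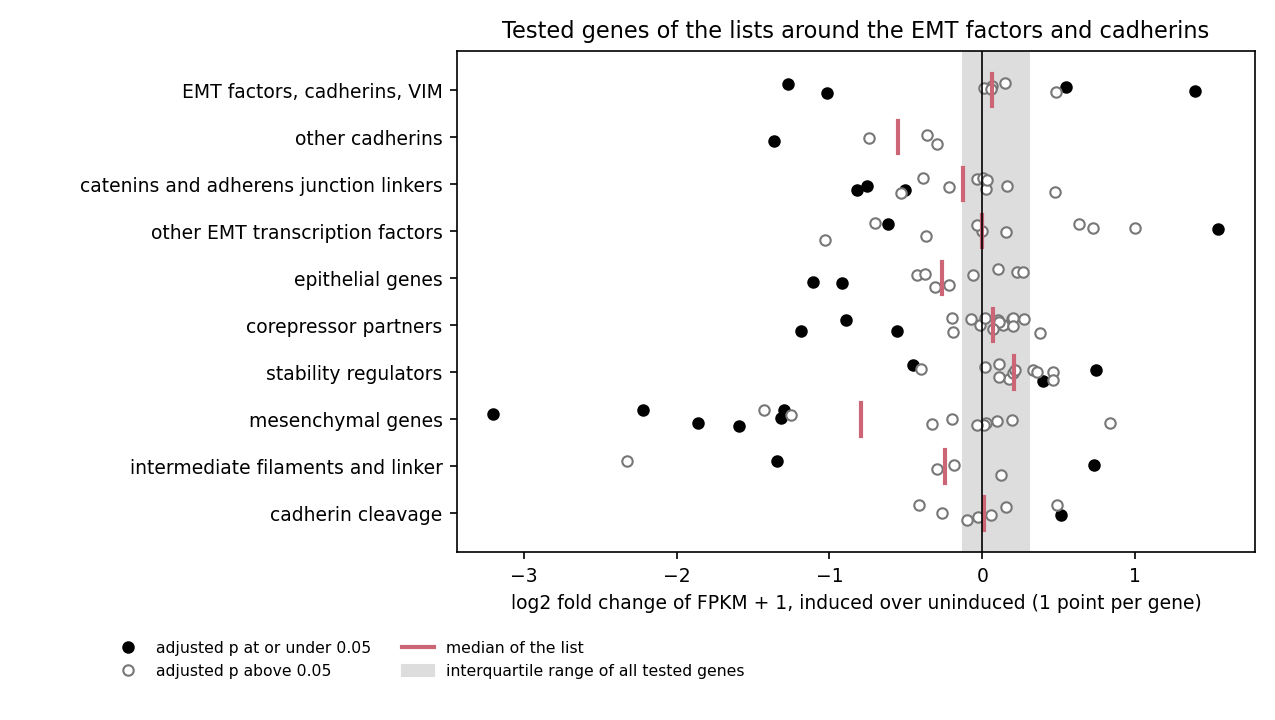
Log2 fold change of FPKM + 1 of each tested gene (points, filled where altered) for the 9 tested genes of the report and for 9 lists around them, with the median of each as a line and the interquartile range of all tested genes shaded. The mesenchymal list, with a median of -0.79, and the list of other cadherins, with -0.55 over 4 genes, lie furthest to the left.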

How the data were processed

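Poly(A) RNA of mitotic IMR90 ERRAS cells was sequenced in 6 libraries. The authors trimmed reads (Trim Galore 0.3.0 in the submitters' processing notes), used TopHat2 for alignment (hg19, splice junctions from Ensembl build 73), and deposited FPKM values made with Cufflinks. Their column names give the group and a number but not the sample. The 120 genes with more than 6 values, 18 unnamed columns, a second header line and the cuffdiff table, which holds the authors' group FPKM, fold changes and p-values, were not used.

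FPKM is not a count, so log2(FPKM + 1) of the 13993 genes averaging 1 FPKM or more was fitted in limma (version 3.58.1, R version 4.3.3) by lmFit and trended eBayes. Tests were two-sided, and p-values were adjusted over all of these genes (Benjamini-Hochberg). p-values measure the spread between these libraries. No read counts were used here, so depth is known only between libraries. Positions are from GENCODE 44 on GRCh37 (the build of hg19) and promoters from RefSeq on GRCh38.p14. The procedure was tested on simulated data with independent normal noise. These data had no scaling difference between libraries, so the simulation does not cover one. Tables and figures were made with Python 3.11.15 and pandas 2.3.3.

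Genes and lists were chosen with earlier results of these data known. Named were the 10 genes, HRAS, cell type markers, and in each list the largest 3 rises and 3 falls among altered genes and the most abundant gene. A gene of the mesenchymal list is not reported here. Other genes of the lists were named after their values were seen. Alternatives were a pseudocount of 0.1, other filters, quantile and upper-quartile scaling, no trend, a replicate block, each library left out and a stricter call.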

Additional observations from a re-analysis of the deposited data

How the results depend on the processing

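TWIST1, TWIST2 and CDH2 were called in the same direction in all 13 alternative fits, and CDH11 in 12 of them. Between 3 and 4 of the 10 genes were altered with 1 library left out, and 3 under a stricter call that also asked for a log2 fold change of 1 or more in size, which TWIST1 did not reach. The number of altered genes in the whole table was 2336, and was 1518 with no filter on low values, 548 with the stricter call and 998 to 1956 with 1 library left out. Upper-quartile scaling gave 921 higher and 1101 lower genes. The causes were not tested. Of the 5 tested genes that were not called, SNAI1 and ZEB1 kept their sign in all 13 fits, and SNAI2, ZEB2 and VIM turned. SNAI2 had a log2 fold change of -0.031 after quantile normalization, -0.042 after upper-quartile scaling and -0.22 to 0.25 with 1 library left out. ZEB2 had -0.089 and -0.094 under these scalings and -0.10 to 0.12 with 1 library left out. VIM had -0.055 after upper-quartile scaling and -0.044 to 0.16 with 1 library left out. Over the 13 alternative fits, the stricter call not included, the altered genes numbered 1 to 4 among the catenins (3 in the values given above), 1 to 5 among other EMT factors (2), 0 to 2 among epithelial genes (2), 1 to 3 among corepressors (3), 0 to 4 among stability regulators (3), 4 to 9 among mesenchymal genes (6) and 0 to 2 among cleavage genes (1).

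The column names do not say whether same-numbered columns of both groups pair, and 3 libraries per group cannot settle it. Deviations of same-numbered columns correlated across genes at -0.0027, 0.043 and 0.048, and those of different numbers at -0.068 to 0.031. Uninduced library 1 correlated best with induced library 2. With the replicate block, 2310 genes and the same 4 of the 10 were altered. FPKM values give the depth of the libraries only relative to each other, so no counting error is known for CDH1.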
